A study of Mus musculus with 18 samples.

Results

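The 7 globin genes of the mouse alpha and beta globin clusters, Hba-x, Hba-a1, Hba-a2, Hbb-y, Hbb-bh1, Hbb-bt and Hbb-bs, were followed across 3 Dnmt3b genotypes at E11.5, a midgestation stage. Members were taken by gene symbol and were 7 of 34244 genes with an expression value. They were selected because the globin levels had already been seen to differ between genotypes in these embryos. The levels, differences and ratios of the 7 genes are therefore given as a description, without a p-value. RNA was sequenced from 9 whole FVB embryos, 1 library per embryo, with 3 embryos in each genotype. Dnmt3b+/+ embryos carried the unmodified gene. Embryos labelled Dnmt3b-/- carried a conventional knockout allele made from Dnmt3b 2loxP mice. Dnmt3bCI/CI embryos carried a knock-in that changes a pair of adjacent residues encoded in exon 19 and inactivates catalysis by the methyltransferase. All cells of these embryos carried the allele and were untreated, and per the methods only live embryos were taken. Nothing in the labels ties embryos to litters.

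Haemoglobin is assembled from alpha-type and beta-type globin chains. The first red cells of the mouse embryo are primitive erythrocytes made in the yolk sac, and they use the embryonic chains, zeta globin from Hba-x and the beta-type chains from Hbb-bh1 and Hbb-y. As these cells mature in the blood stream, Hbb-bh1 gives way to Hbb-y and Hba-x to the adult alpha genes. Definitive red cells made in the fetal liver use Hba-a1, Hba-a2, Hbb-bs and Hbb-bt. Around midgestation the liver takes up blood formation, so a whole embryo at this stage holds transcripts of both kinds of cell.

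On GRCm38 the alpha cluster members lie on the plus strand of chromosome 11, Hba-x at chr11:32276400-32278116, Hba-a1 at chr11:32283511-32284465 and Hba-a2 at chr11:32296489-32297298. The beta cluster members lie on the minus strand of chromosome 7, Hbb-y at chr7:103851749-103853216, Hbb-bh1 at chr7:103841637-103843164, Hbb-bs at chr7:103826534-103828096 and Hbb-bt at chr7:103812524-103813996. In both clusters the embryonic genes come before the adult genes in the direction of transcription. RefSeq promoters (GRCm38.p6) were matched for 6 of the 7 genes, all but Hbb-bh1. The 120 bases before the RefSeq start are shown for the genes whose levels part ways below, at chr11:32276480-32276599 (Hba-x, plus strand), chr11:32283552-32283671 (Hba-a1, plus strand), chr7:103853208-103853327 (Hbb-y, minus strand), chr7:103827929-103828048 (Hbb-bs, minus strand) and chr7:103813924-103814043 (Hbb-bt, minus strand). They run 5′ to 3′ in the direction of the gene, and capitals mark, on either strand, the TATA box letters ATATAA or their variant CATAAA, the CCAAT box, the letters CACCC that Krüppel-like factors recognise and the core GATA that GATA factors recognise.
Hba-x: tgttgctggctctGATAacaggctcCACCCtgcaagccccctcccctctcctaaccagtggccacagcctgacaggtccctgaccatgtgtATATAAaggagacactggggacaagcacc
Hba-a1: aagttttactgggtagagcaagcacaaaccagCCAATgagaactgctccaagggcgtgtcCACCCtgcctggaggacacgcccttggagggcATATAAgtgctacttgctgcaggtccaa
Hbb-y: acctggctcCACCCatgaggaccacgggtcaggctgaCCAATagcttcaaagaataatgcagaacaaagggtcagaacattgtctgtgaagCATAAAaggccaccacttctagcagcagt
Hbb-bs: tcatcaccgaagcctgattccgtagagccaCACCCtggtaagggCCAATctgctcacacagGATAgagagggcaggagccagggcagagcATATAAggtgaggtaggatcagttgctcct
Hbb-bt: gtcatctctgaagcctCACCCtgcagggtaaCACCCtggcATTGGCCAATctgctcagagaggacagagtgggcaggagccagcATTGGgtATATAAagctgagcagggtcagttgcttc
All the windows shown hold CACCC, and all but that of Hba-x hold CCAAT. Hbb-y holds CATAAA at 29 to 24 bases before its start, where the other members shown hold ATATAA at closely similar positions (29 to 24 in Hba-x, 28 to 23 in Hba-a1, 30 to 25 in Hbb-bs, 29 to 24 in Hbb-bt). GATA occurs in the windows of Hba-x and Hbb-bs. No match overlaps another in these windows. Among 32817 RefSeq promoters cut to the same length, ATATAA is found in 4.47%, CATAAA in 5.17%, CCAAT in 21.3%, CACCC in 31.7% and GATA in 29.5%. The Hba-a2 window shares an unbroken run of 117 of 120 bases with that of Hba-a1. The longest run shared by Hbb-bs and Hbb-bt is 14 bases, and by Hbb-y and Hbb-bs 6 bases. A match describes the letters and does not show a bound factor.

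Between 38451729 and 49808777 reads stood behind the values of an embryo. Behind the members stood from 163 reads (Hba-a2) to 102930 reads (Hbb-y) per embryo, and the largest counting error of a member value was 7.83% (Hba-a2), far below the spread between embryos. Markers of neural tissue (Sox2, 15.2 to 43.1 FPKM), cartilage (Col2a1, 53.2 to 145 FPKM) and muscle (Myog, 5.76 to 29.4 FPKM) were present in all 9 libraries. Epithelial Epcam (2.55 to 6.82 FPKM) and neural Pax6 (0.58 to 2.98 FPKM) were lower. The trunk gene Hoxb9 (0.92 to 31.0 FPKM) and the heart gene Myh6 (0.36 to 17.1 FPKM) ranged 33.7-fold and 47.1-fold between libraries. Hoxb9 was lowest and highest in embryos of the same genotype, labelled Dnmt3b-/- replicates 3 and 1, and the part of such differences between libraries in the globin values was not tested. Dnmt3b itself stood at 2.45, 3.12 and 3.33 FPKM in the libraries labelled Dnmt3b-/-, above Dnmt3b+/+ (2.25, 1.62 and 2.04 FPKM) and Dnmt3bCI/CI (2.06, 1.98 and 2.32 FPKM). Because FPKM was summed over the gene, a deletion of some exons could not be seen, so the labels are kept as given and directions rest on them.

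Dnmt3b+/+ replicate 2 stood apart from the other libraries in the genes of the liver and of red cells. Alb, the main plasma protein of hepatocytes, was 0.10 FPKM there and 85.7 and 43.7 FPKM in the other Dnmt3b+/+ embryos. Of 19 hepatocyte markers that passed the filter on low values, 18 were lowest of all 9 embryos in this library, 17 were more than 10 times below the mean of the other Dnmt3b+/+ embryos and 11 were at 0.1 FPKM or less. The exception, Ttr, was highest there. Of 41 red cell genes, 35 were lowest there. Differences in globins from Dnmt3b+/+ are therefore given with and without this embryo, and the part that it, or the amount of liver in each library, had in a globin value was not tested.

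Hba-x, the zeta globin gene and the only embryonic member of the alpha cluster, was measured at 153, 310.3 and 184 FPKM in the Dnmt3b+/+ embryos. It reached 376, 1347 and 713 FPKM in labelled Dnmt3b-/- embryos. In Dnmt3bCI/CI it was 181, 157 and 172 FPKM. All embryos labelled Dnmt3b-/- were above all others, and the highest Dnmt3b+/+ value belonged to replicate 2. The difference in log2(FPKM + 0.1) between labelled Dnmt3b-/- and Dnmt3b+/+ was 1.79 ± 0.42 (SE, n = 3 per genotype), which is 3.46-fold. Against Dnmt3bCI/CI it was 2.07 ± 0.42, or 4.20-fold. Without Dnmt3b+/+ replicate 2 the first difference was 2.09 ± 0.44.

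Hbb-bh1, the earlier of the embryonic beta-type genes, showed the largest differences among the members. Its values were 26.9, 46.1 and 23.3 FPKM in Dnmt3b+/+ and 25.1, 26.8 and 20.2 FPKM in Dnmt3bCI/CI. They were 113, 501 and 265 FPKM in labelled Dnmt3b-/-. The lowest of these was above the highest value of either other genotype. The mean of 293 ± 195 FPKM (SD, n = 3) stood against 32.1 ± 12.3 FPKM in Dnmt3b+/+, a log2 difference of 3.01 ± 0.48 or 8.03-fold. It was 3.30 ± 0.51 without Dnmt3b+/+ replicate 2 and 3.37 ± 0.48 against Dnmt3bCI/CI. By mean FPKM, Hbb-bh1 was the 645th gene of the Dnmt3b+/+ embryos, the 1005th of the Dnmt3bCI/CI embryos and the 35th of the embryos labelled Dnmt3b-/-.

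Hbb-y, the epsilon-type gene that mature primitive red cells use, was the most abundant gene of the whole table by mean FPKM in Dnmt3b+/+ and in labelled Dnmt3b-/- embryos, and the 3rd in Dnmt3bCI/CI. It stood at 1121, 1701 and 1208 FPKM in Dnmt3b+/+, at 1278, 3825 and 2295 FPKM in labelled Dnmt3b-/- and at 1345, 944 and 1242 FPKM in Dnmt3bCI/CI. The genotypes overlapped, since replicate 1 of the labelled Dnmt3b-/- embryos lay within the range of both others. The log2 difference between labelled Dnmt3b-/- and Dnmt3b+/+ was 0.76 ± 0.37, and 0.94 ± 0.41 without Dnmt3b+/+ replicate 2. The embryonic genes thus ranked Hbb-bh1, Hba-x and Hbb-y by size of the difference.

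**Figure D1:**
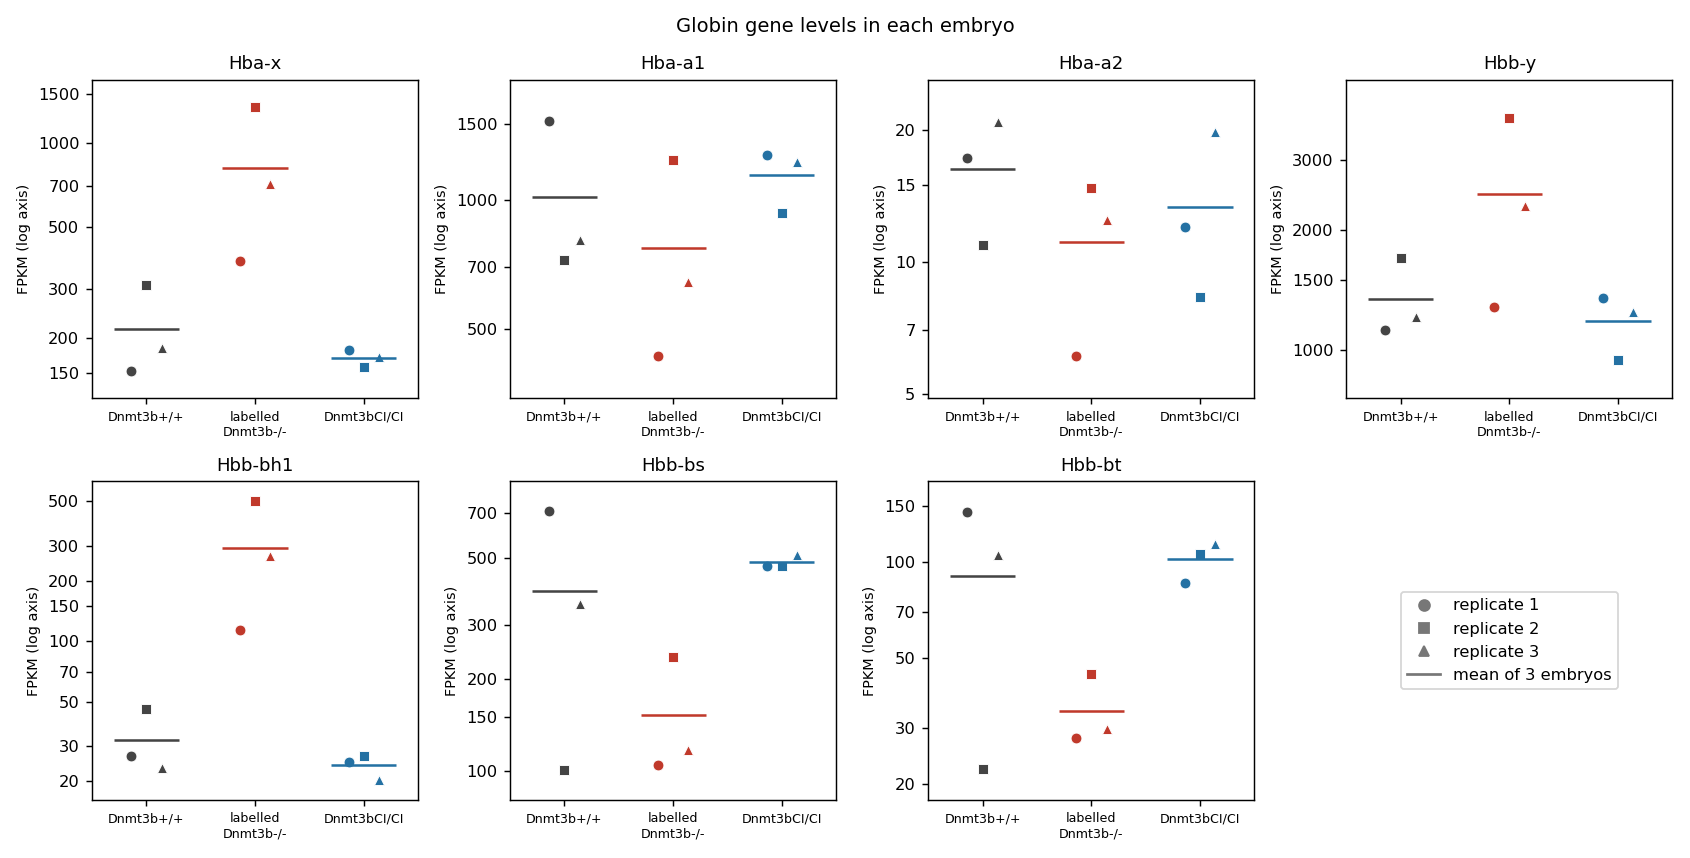
FPKM on log axes of the 7 globin genes in each of 9 embryos, with 1 marker shape per replicate number and a line at the mean of 3 embryos. Hba-x and Hbb-bh1 are higher in all 3 embryos labelled Dnmt3b-/- than in the other 6, while Dnmt3b+/+ replicate 2 has the lowest Hbb-bs (100.4 FPKM) and Hbb-bt (22.4 FPKM) of all.

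Of the adult alpha genes, Hba-a1 carried nearly all of the signal. It was measured at 1525, 724 and 807 FPKM in Dnmt3b+/+, at 432, 1240.0 and 644 FPKM in labelled Dnmt3b-/- and at 1272, 933 and 1224 FPKM in Dnmt3bCI/CI. All 3 genotypes overlapped, and the log2 difference between labelled Dnmt3b-/- and Dnmt3b+/+ was -0.46 ± 0.40, or -0.66 ± 0.45 without Dnmt3b+/+ replicate 2. Hba-a2 gave 10.96 to 20.9 FPKM in Dnmt3b+/+, 6.13 to 14.7 FPKM in labelled Dnmt3b-/- and 8.31 to 19.8 FPKM in Dnmt3bCI/CI, a difference of -0.60 ± 0.41 between the first 2, or -0.86 ± 0.43 without that embryo. The values of the 2 genes are uncertain one by one. Only reads with a mapping quality of at least 50 were kept, and 48.4% of the 150-base windows of the Hba-a1 transcript and 65.7% of those of Hba-a2 occur unchanged in the other. Their ratio, 38.7 to 112 over the 9 embryos, cannot be read as their ratio in the cells.

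The adult beta genes Hbb-bs and Hbb-bt varied more among Dnmt3b+/+ embryos than between genotypes. Hbb-bs was 711, 100.4 and 351 FPKM in Dnmt3b+/+, a 7.08-fold range, and 469.6, 469 and 510.5 FPKM in Dnmt3bCI/CI, a 1.09-fold range. It was 104, 236 and 117 FPKM in labelled Dnmt3b-/-. All embryos labelled Dnmt3b-/- lay under all Dnmt3bCI/CI embryos and under replicates 1 and 3 of Dnmt3b+/+, with replicate 2 lowest of all. The log2 difference from Dnmt3b+/+ was -1.04 ± 0.62 with all embryos and -1.81 ± 0.39 without replicate 2. Against Dnmt3bCI/CI it was -1.76 ± 0.62. Hbb-bt followed the same order at a lower level, with 144, 22.4 and 106 FPKM in Dnmt3b+/+, 27.9, 44.4 and 29.8 FPKM in labelled Dnmt3b-/- and 85.9, 106 and 114 FPKM in Dnmt3bCI/CI. Its differences were -1.07 ± 0.59 from Dnmt3b+/+, -1.89 ± 0.23 without replicate 2 and -1.60 ± 0.59 from Dnmt3bCI/CI. The ratio of Hbb-bs to Hbb-bt stayed between 3.32 and 5.47 in all 9 embryos. It is uncertain in the same way, as 58.7% of the Hbb-bs windows and 50.7% of the Hbb-bt windows are shared, whereas the embryonic genes share no such window with any member. Whether the FVB strain carries the same Hbb-bs and Hbb-bt sequences as the reference was not checked, and the values of these genes and the beta cluster ratios could depend on it.

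Between labelled Dnmt3b-/- and Dnmt3b+/+, 2 of the 7 members, Hba-x and Hbb-bh1, were past the call rule used for all genes (limma adjusted p under 0.05 and a fold of at least 2) on the higher side and none on the lower, where 1.07% of 19397 tested genes were called higher and 3.38% lower. The values of these 2 did not overlap, as was so for 15.1% of genes in that direction and for 23.8% in the other. All 7 members had passed the filter on low values. Without Dnmt3b+/+ replicate 2, Hbb-bs and Hbb-bt were called lower as well, and 4.07% of genes were called in all. Between labelled Dnmt3b-/- and Dnmt3bCI/CI the same 2 genes were called higher, where 1.10% of genes were higher and 4.32% lower. There the values did not overlap for 2 members that were higher and 2, Hbb-bs and Hbb-bt, that were lower, as was so for 16.7% and 29.5% of tested genes. With Dnmt3b+/+ replicate 2 left out of the fit, 2 members were called lower in that comparison as well, and 6.05% of genes were called in all. These comparisons share embryos and the members were chosen on them, so the counts of members are a description and no test of the globins, and nothing is read from them.

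Between Dnmt3bCI/CI and Dnmt3b+/+ no member was called and all 7 overlapped, in a comparison in which 0.129% of tested genes were called higher and 0% lower, and 7.53% lay wholly higher and 5.65% wholly lower. The log2 differences ran from -0.36 ± 0.48 (Hbb-bh1) to 0.72 ± 0.62 (Hbb-bs). Without Dnmt3b+/+ replicate 2 they ran from -0.59 ± 0.43 (Hba-a2) to 0.03 ± 0.45 (Hba-a1), with Hbb-bt at -0.28 ± 0.23, Hbb-bh1 at -0.07 ± 0.51 and Hbb-bs at -0.05 ± 0.39. The errors are wide enough that differences well beyond the standard error could have been missed. In the same fit, differences of -1.76 (Hbb-bs) and -1.60 (Hbb-bt) between labelled Dnmt3b-/- and Dnmt3bCI/CI were not called.

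**Figure D2:**
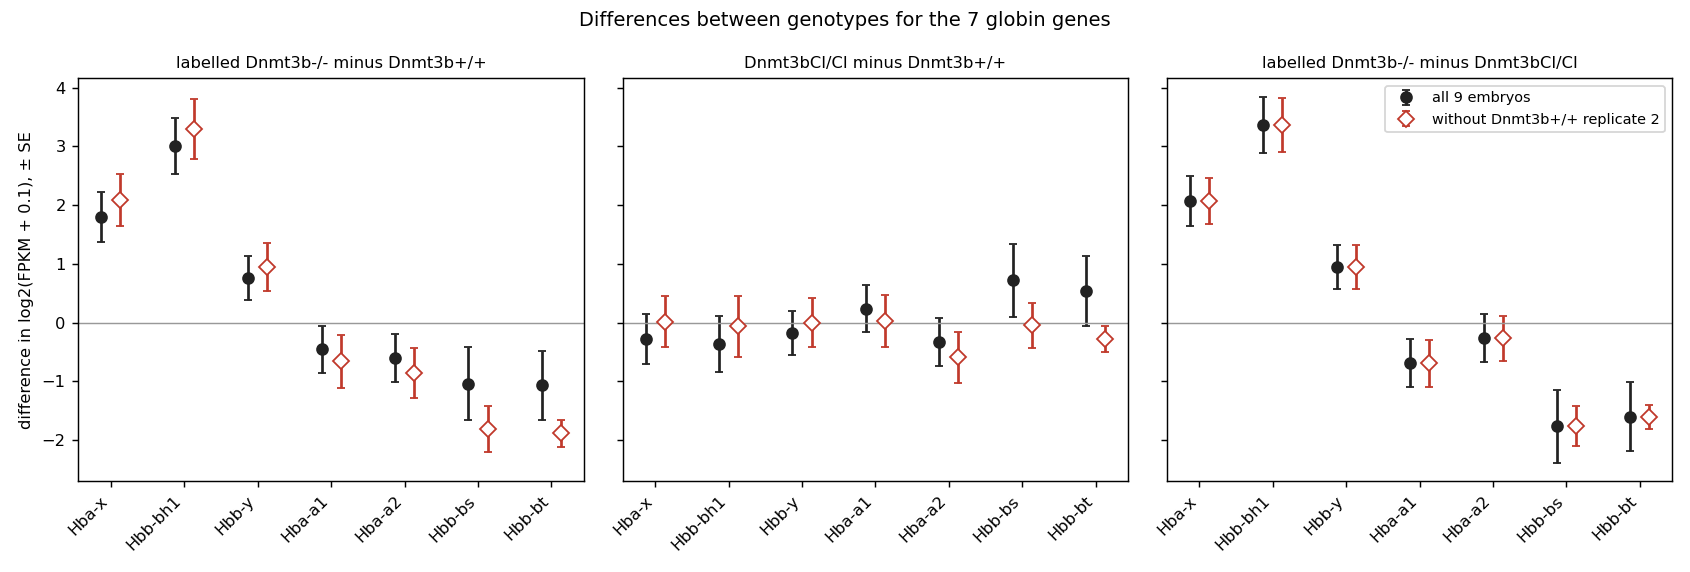
Difference in log2(FPKM + 0.1) between genotypes for each globin gene, ± SE from limma, with all 9 embryos (filled circles) and without Dnmt3b+/+ replicate 2 (open diamonds). In labelled Dnmt3b-/- minus Dnmt3b+/+ the adult beta genes move from near -1.04 to near -1.81 when that embryo is left out, and Hbb-bh1 is the largest in both.

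The switch within each cluster was expressed as the summed FPKM of the embryonic genes over that of the adult genes of the same embryo. Scaling of the library cancels in such a ratio. For the alpha cluster (Hba-x over Hba-a1 and Hba-a2) it was 0.0990, 0.422 and 0.222 in Dnmt3b+/+, 0.858, 1.07 and 1.09 in labelled Dnmt3b-/- and 0.141, 0.167 and 0.138 in Dnmt3bCI/CI. All embryos labelled Dnmt3b-/- lay above all others, with Hba-x at about the level of the adult alpha genes in FPKM. Reads lost between the near-identical adult genes would raise such ratios, so the differences are compared rather than the absolute values. On the log2 scale their mean ratio differed from Dnmt3b+/+ by 2.25 ± 0.62 (SE, n = 3 per genotype), by 2.75 ± 0.59 without replicate 2, and from Dnmt3bCI/CI by 2.76 ± 0.14. In shares, Hba-x made up 46.2%, 51.8% and 52.1% of the alpha cluster in labelled Dnmt3b-/-, 9.01%, 29.7% and 18.2% in Dnmt3b+/+ and 12.1% to 14.3% in Dnmt3bCI/CI.

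For the beta cluster (Hbb-y and Hbb-bh1 over Hbb-bs and Hbb-bt) the ratio was 1.34, 14.2 and 2.70 in Dnmt3b+/+, 10.5, 15.4 and 17.4 in labelled Dnmt3b-/- and 2.47, 1.69 and 2.02 in Dnmt3bCI/CI. Dnmt3b+/+ replicate 2 lay inside the range of the labelled Dnmt3b-/- embryos, so that those genotypes overlapped. Their log2 difference was 1.93 ± 1.03 with this embryo and 2.90 ± 0.55, with no overlap, without it. It was 1.19 without Dnmt3b+/+ replicate 1, the embryo with the lowest ratio. Against Dnmt3bCI/CI it was 2.80 ± 0.27 with no overlap. The adult share of the beta cluster was 8.66%, 6.09% and 5.42% in labelled Dnmt3b-/-, 42.7%, 6.57% and 27.1% in Dnmt3b+/+ and 28.8% to 37.2% in Dnmt3bCI/CI.

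**Figure D3:**
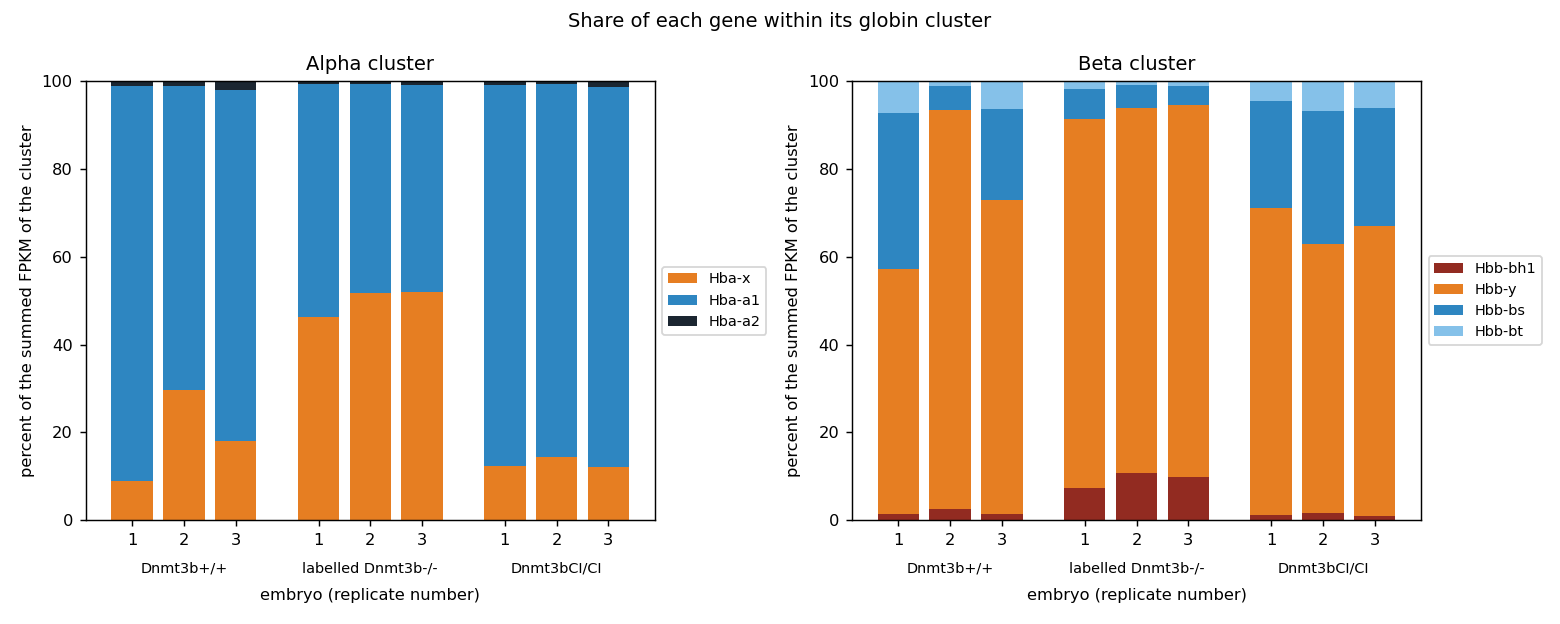
Stacked bars of the percent of the summed FPKM of the alpha cluster (left) and of the beta cluster (right) that each gene takes in each embryo. Hba-x takes 46.2% to 52.1% of the alpha cluster in the embryos labelled Dnmt3b-/-, and Hbb-bh1 takes 7.44% to 10.9% of their beta cluster. The large Hbb-y share of Dnmt3b+/+ replicate 2 comes with 2.46% Hbb-bh1, the highest outside the embryos labelled Dnmt3b-/-.

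Within the embryonic beta genes the ratio of Hbb-y to Hbb-bh1 set the embryos labelled Dnmt3b-/- apart from the other 6. It was 41.7, 36.9 and 52.0 in Dnmt3b+/+ and 53.7, 35.2 and 61.4 in Dnmt3bCI/CI. In the embryos labelled Dnmt3b-/- it was 11.3, 7.63 and 8.66. The ranges of Dnmt3b+/+ and Dnmt3bCI/CI overlapped, with a log2 difference of 0.18 ± 0.28, and Dnmt3b+/+ replicate 2 lay with these 6 embryos. The log2 difference of labelled Dnmt3b-/- from Dnmt3b+/+ was -2.25 ± 0.22, or -2.36 ± 0.23 without that replicate, and from Dnmt3bCI/CI it was -2.43 ± 0.29. Leaving out any single embryo kept the first value between -2.41 and -2.11. The ratio of Hba-x to Hbb-bh1 also set the labelled Dnmt3b-/- embryos apart, at 2.69 to 3.32 in labelled Dnmt3b-/- against 5.68 to 7.90 in Dnmt3b+/+ and 5.86 to 8.48 in Dnmt3bCI/CI, which overlapped each other.

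Dnmt3b+/+ replicate 2 and the embryos labelled Dnmt3b-/- had similar embryonic to adult ratios in the beta cluster (14.2 against 10.5 to 17.4) but a different make-up. Hbb-bh1 was 2.46% of the beta cluster in the former and 7.44%, 10.9% and 9.79% in the latter. That 2.46% was still the highest share outside the embryos labelled Dnmt3b-/-. By Hbb-bh1 over the adult beta genes, Dnmt3b+/+ replicate 2 was intermediate at 0.375. The ratio was 0.859 to 1.81 in labelled Dnmt3b-/- and 0.0315 to 0.0509 in Dnmt3b+/+ replicates 1 and 3 and in Dnmt3bCI/CI. In the alpha cluster the ratio of 0.422 in Dnmt3b+/+ replicate 2 was below the 0.858 to 1.09 of the embryos labelled Dnmt3b-/-. As this is 1 embryo, no difference was tested.

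**Figure D4:**
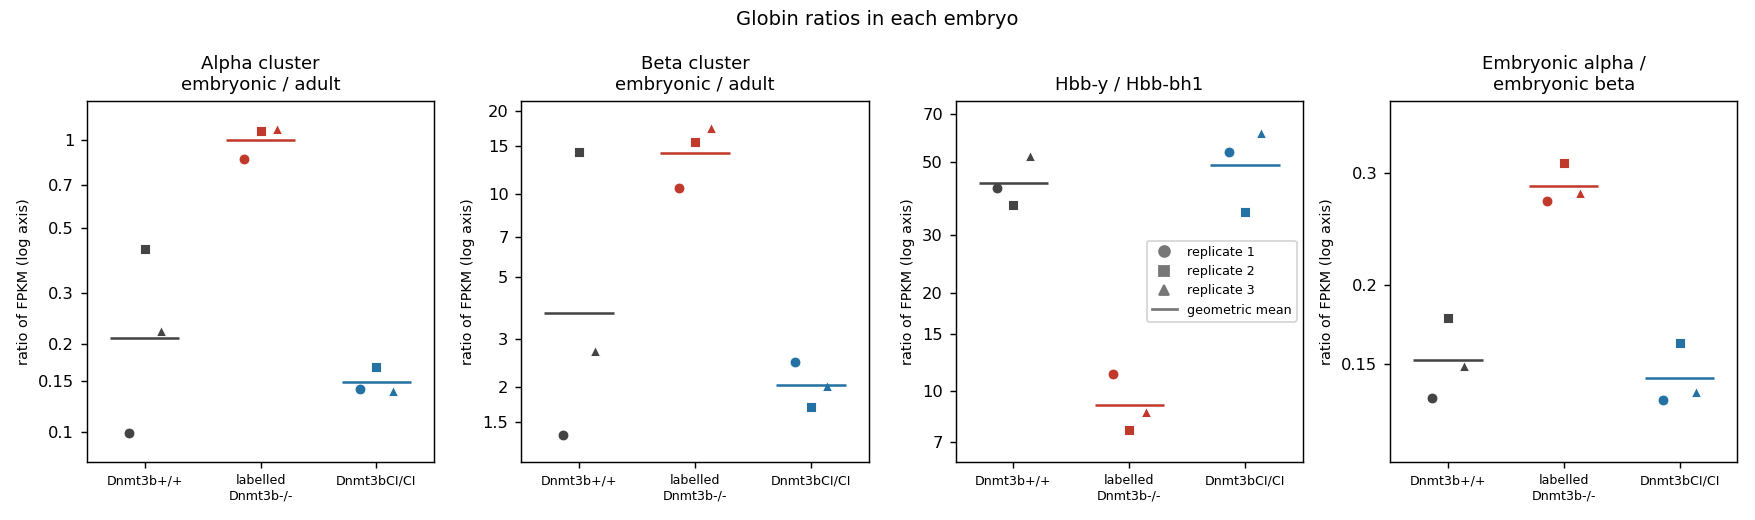
Ratios of FPKM on log axes in each embryo, with a line at the geometric mean of 3 embryos. The beta cluster ratio of Dnmt3b+/+ replicate 2 (square, 14.2) lies among the embryos labelled Dnmt3b-/-, whereas its Hbb-y to Hbb-bh1 ratio (36.9) lies among the other 5 embryos.

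The balance of alpha-type to beta-type transcripts was compared because the chains pair in haemoglobin. Over all 7 genes alpha to beta was 0.846, 0.559 and 0.599 in Dnmt3b+/+, 0.535, 0.565 and 0.506 in labelled Dnmt3b-/- and 0.761, 0.711 and 0.750 in Dnmt3bCI/CI. Labelled Dnmt3b-/- and Dnmt3b+/+ overlapped, with a log2 difference of -0.30 ± 0.19. Without Dnmt3b+/+ replicate 2 it was -0.41 ± 0.25 with no overlap. Taken apart by stage the sign was the other way. Embryonic alpha to embryonic beta was 0.270, 0.311 and 0.278 in labelled Dnmt3b-/- and 0.132 to 0.178 in the other 6 embryos, a log2 difference of 0.91 ± 0.14 from Dnmt3b+/+, or 1.02 ± 0.10 without that embryo. Adult alpha to adult beta was 3.32, 4.47 and 4.47 in labelled Dnmt3b-/-, 1.80, 5.98 and 1.81 in Dnmt3b+/+ and 1.64 to 2.31 in Dnmt3bCI/CI. Its log2 difference from Dnmt3b+/+ was 0.59 ± 0.59 with overlap, and 1.16 ± 0.14 with no overlap without Dnmt3b+/+ replicate 2. In the summed ratio a larger part of the labelled Dnmt3b-/- transcripts was embryonic, and in each genotype the embryonic genes had the lower alpha to beta ratio in FPKM. Reads lost between the near-identical adult genes could change the adult and summed ratios, so their absolute values are uncertain.

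The summed FPKM of the 7 genes was 3697, 2915 and 2700.1 in Dnmt3b+/+, 2339, 7208 and 4075 in labelled Dnmt3b-/- and 3391, 2644 and 3303 in Dnmt3bCI/CI. The labelled Dnmt3b-/- embryos held both the lowest and the highest sum, and the log2 difference from Dnmt3b+/+ was 0.41 ± 0.49, or 0.37 ± 0.52 without replicate 2 of the latter. Adult globins alone summed to 571, 1535 and 803 FPKM in labelled Dnmt3b-/-, 2397, 857 and 1285 FPKM in Dnmt3b+/+ and 1516 to 1869 FPKM in Dnmt3bCI/CI. Their difference from Dnmt3b+/+ was -0.64 ± 0.60, or -0.98 ± 0.61 without that embryo. Replicate 2 of the embryos labelled Dnmt3b-/- was the highest of its genotype in all 7 members, so levels moved together within that genotype while the ratios stayed close. In whole embryos, fewer cells of a type and less RNA per cell cannot be told apart.

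Other red cell genes were compared to see whether they moved with the globins. Of 42 red cell genes, among them genes for haem synthesis and for the membrane and its skeleton, 41 were tested (Ahsp, the alpha globin chaperone, was not in the table) and none was called by limma in any of the 3 comparisons, where 4.45% (labelled Dnmt3b-/- and Dnmt3b+/+), 0.129% (Dnmt3bCI/CI and Dnmt3b+/+) and 5.42% (labelled Dnmt3b-/- and Dnmt3bCI/CI) of all genes were called. At an unadjusted p under 0.05 there were 2, 0 and 3 in the same order, where 40.0%, 5.25% and 41.9% of all genes passed. Their median log2 difference between labelled Dnmt3b-/- and Dnmt3b+/+ was 0.17 with all embryos and -0.40 without Dnmt3b+/+ replicate 2, where the median of all tested genes was -0.07 and -0.08. Against Dnmt3bCI/CI, 35 of the 41 had a negative difference, with a median of -0.24 where that of all genes was -0.08, and 7 lay wholly lower and 1 wholly higher, where 29.5% and 16.7% of all genes did. Alas2, the first enzyme of haem synthesis in red cells, was 18.7, 6.17 and 11.9 FPKM in Dnmt3b+/+ and 8.89, 19.1 and 11.3 FPKM in labelled Dnmt3b-/-. Slc4a1, the anion exchanger of the red cell membrane, was 43.6, 5.21 and 26.2 FPKM in Dnmt3b+/+ and 18.7, 36.9 and 22.4 FPKM in labelled Dnmt3b-/-. In both, Dnmt3b+/+ replicate 2 was lowest of all. Hemgn, a nuclear protein of erythroid cells, was 0.11 FPKM in that embryo and 1.74 to 8.56 FPKM elsewhere. For Epor, the erythropoietin receptor, the values were 1.03 and 2.27 to 5.64 FPKM.

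Among 41 regulators of globin switching and of erythroid transcription, 4 were called between labelled Dnmt3b-/- and Dnmt3b+/+, where 4.45% of all genes were called. Nfix and Nfia, nuclear factor I genes, fell by 2.47 ± 0.28 (limma adjusted p = 0.00101) and by 1.13 ± 0.10 (adjusted p = 0.000436) on the log2 scale. Nfix was 11.4, 14.8 and 14.6 FPKM in Dnmt3b+/+ and 4.004, 1.84 and 1.76 FPKM in labelled Dnmt3b-/-. Nuclear factor I genes are widely expressed outside blood, and whole embryos do not show which cells changed. Lin28b, an RNA-binding protein of fetal-type blood cells, rose by 1.05 ± 0.23 (adjusted p = 0.0134), and Hmga2, a chromatin protein whose RNA is a target of the let-7 miRNAs, rose by 1.09 ± 0.23 (adjusted p = 0.0124). Without Dnmt3b+/+ replicate 2 both passed the adjusted p but not the fold (0.89 and 0.78), and only Nfix and Nfia were called. Between labelled Dnmt3b-/- and Dnmt3bCI/CI, Lin28b, Nfia and Nfix were called in the same directions, where 1.10% of all genes were called higher and 4.32% lower, and 12 regulators passed higher and 8 lower at the adjusted p alone, where 9.70% and 18.2% of all genes did. None was called between Dnmt3bCI/CI and Dnmt3b+/+, nor did any pass the adjusted p alone, where 0.129% of all genes passed higher and 0.0155% lower, and 1 was at an unadjusted p under 0.05, where 5.25% of all genes were.

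At the adjusted p alone, 17 of the 41 regulators passed between labelled Dnmt3b-/- and Dnmt3b+/+, 9 higher and 8 lower, where 9.41% of all genes were higher and 16.4% lower. Those higher included genes whose products also act in the silencing of embryonic or fetal globin genes, named after their values were seen, the maintenance DNA methyltransferase Dnmt1 (0.37 ± 0.07, limma adjusted p = 0.00741), the histone deacetylase Hdac1 (0.42 ± 0.10, adjusted p = 0.0171) and the chromatin remodeller Chd4 (0.25 ± 0.05, adjusted p = 0.00926). Those lower included Sox6 (-0.73 ± 0.14, limma adjusted p = 0.00953) and Zbtb7a (-0.52 ± 0.13, adjusted p = 0.0233), both repressors of embryonic or fetal globin genes in definitive cells. Repressors of these genes thus lay on both sides. Sox6 and Zbtb7a kept their direction and passed without Dnmt3b+/+ replicate 2 (-0.82 and -0.64). Dnmt1, Hdac1 and Chd4 also passed there (0.33, 0.33 and 0.25). Bcl11a, a repressor of the same genes, gave -0.12 ± 0.07 (adjusted p = 0.248), with 4.77 to 5.07 FPKM in labelled Dnmt3b-/- and 4.99 to 5.79 FPKM in Dnmt3b+/+. Myb, which acts in definitive progenitors, gave 0.18 ± 0.27 (adjusted p = 0.659). The erythroid factors did not pass, with log2 differences of 0.57 ± 0.87 for Gata1, 0.56 ± 1.05 for Klf1, 0.46 ± 0.73 for Nfe2 and -0.28 ± 0.22 for Tal1. The first 3 were lowest of all embryos in Dnmt3b+/+ replicate 2 (Gata1 0.12, Klf1 0.45 and Nfe2 0.23 FPKM). Without that embryo the differences of these 3 changed sign, to -0.63 ± 0.34 (Gata1), -0.88 ± 0.41 (Klf1) and -0.56 ± 0.27 (Nfe2). Tal1 gave -0.46 ± 0.21 there, and none of these erythroid factors passed.

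The liver is where definitive red cells form at this stage, so its markers are given beside the adult globins. The 20 hepatocyte markers summed to 397, 38.8 and 222 FPKM in Dnmt3b+/+, 86.9, 173 and 85.9 FPKM in labelled Dnmt3b-/- and 294, 248 and 297 FPKM in Dnmt3bCI/CI. In Dnmt3b+/+ replicate 2, 91.5% of the sum was Ttr, which carries thyroid hormone and retinol-binding protein and is also made by the choroid plexus. Without Ttr, a choice made after its values were seen, the other 19 markers summed to 375, 3.29 and 207 FPKM in Dnmt3b+/+, 81.9, 165 and 83.0 FPKM in labelled Dnmt3b-/- and 286, 226 and 283 FPKM in Dnmt3bCI/CI. By either sum, as for the adult beta genes, labelled Dnmt3b-/- embryos lay under the Dnmt3bCI/CI embryos and under Dnmt3b+/+ replicates 1 and 3, and above Dnmt3b+/+ replicate 2. Of 19 tested markers only Ttr was called between labelled Dnmt3b-/- and Dnmt3b+/+ (-2.19 ± 0.47, limma adjusted p = 0.0121), on the lower side, where 3.38% of all genes were called. It was 22.5, 35.5 and 14.7 FPKM in Dnmt3b+/+, 4.998, 8.12 and 2.89 FPKM in labelled Dnmt3b-/- and 8.42, 21.6 and 14.2 FPKM in Dnmt3bCI/CI. As Ttr was highest of all in the embryo where Alb and Afp were nearly absent, its level did not follow those of the other markers there. The median of the 19 was 0.31, with 16 on the higher side. Without Dnmt3b+/+ replicate 2, 9 markers were called lower, where 3.08% of all genes were, among them Alb (-2.31 ± 0.37, adjusted p = 0.00806), and the median was -1.20. Afp, alpha-fetoprotein, was 93.3, 0.12 and 52.0 FPKM in Dnmt3b+/+, 23.8, 54.3 and 27.6 FPKM in labelled Dnmt3b-/- and 52.1 to 75.5 FPKM in Dnmt3bCI/CI. Against Dnmt3bCI/CI, all 19 markers had a negative difference with a median of -1.20, and 1, Ttr, was called lower with all embryos, where 4.32% of all genes were, and 13, all lower, without Dnmt3b+/+ replicate 2, which also entered the shared estimate of the spread. Without that embryo 6.05% of all genes were called there, 4.94% lower. The part of the liver in the globin ratios was not tested.

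**Figure D5:**
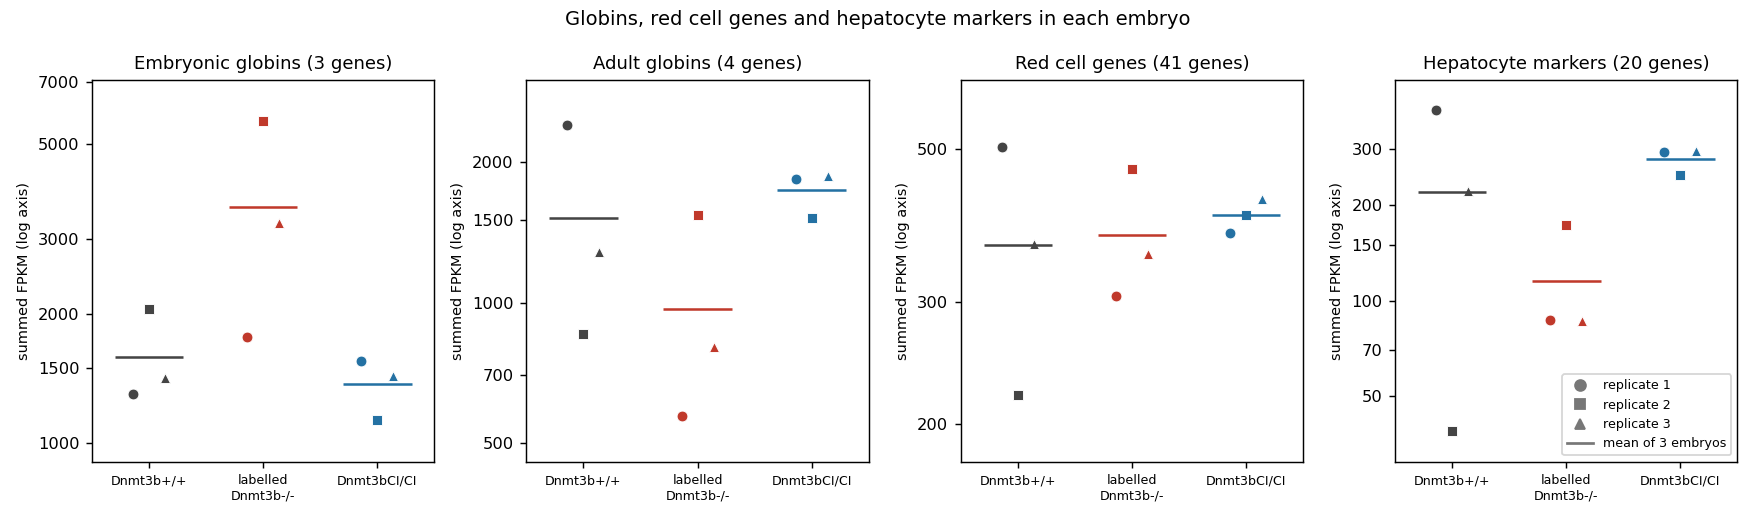
Summed FPKM on log axes of the 3 embryonic globins, the 4 adult globins, 41 red cell genes and 20 hepatocyte markers in each embryo, with a line at the mean of 3 embryos. Dnmt3b+/+ replicate 2 is the lowest embryo for red cell genes (221 FPKM) and hepatocyte markers (38.8 FPKM, of which Ttr is 35.5) but not for embryonic globins (2057 FPKM).

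Markers of other blood cells that passed the adjusted p were lower in the labelled Dnmt3b-/- embryos. Of 23 genes of leukocytes, macrophages, platelets and progenitors, 21 were tested and none was called by limma at a fold of 2 in any of the 3 comparisons, where 4.45% (labelled Dnmt3b-/- and Dnmt3b+/+), 0.129% (Dnmt3bCI/CI and Dnmt3b+/+) and 5.42% (labelled Dnmt3b-/- and Dnmt3bCI/CI) of all genes were. At the adjusted p alone, 5 were lower and none higher between labelled Dnmt3b-/- and Dnmt3b+/+, where 16.4% of all genes were lower, and 10 were lower and none higher against Dnmt3bCI/CI, where 18.2% were. All 21 had a negative difference in the latter comparison, with a median of -0.60. Between labelled Dnmt3b-/- and Dnmt3b+/+, 14 were lower and 7 higher, with a median of -0.21 where that of all genes was -0.07. Between Dnmt3bCI/CI and Dnmt3b+/+, all 21 were higher, with a median of 0.23 where that of all genes was 0.02. At an unadjusted p under 0.05 there were 8 between labelled Dnmt3b-/- and Dnmt3b+/+ (40.0% of all genes), 2 between Dnmt3bCI/CI and Dnmt3b+/+ (5.25%) and 12 between labelled Dnmt3b-/- and Dnmt3bCI/CI (41.9%). Their summed level was 40.99 to 49.1 FPKM in labelled Dnmt3b-/-, 40.9 to 65.0 FPKM in Dnmt3b+/+ and 59.3 to 73.3 FPKM in Dnmt3bCI/CI. Csf1r, the macrophage growth factor receptor, gave -0.28 ± 0.09 between labelled Dnmt3b-/- and Dnmt3b+/+ (adjusted p = 0.0570). Ptprc, the pan-leukocyte CD45 gene, was at 0.04 to 0.09 FPKM in all embryos and was not tested.

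The remaining globin family genes were low. The theta-type genes Hbq1a and Hbq1b were at 0.08 to 0.50 and 0.47 to 1.75 FPKM. Hbb-bh2, which lies in the beta cluster, was at 0.03 to 0.09 FPKM and was not tested. Of 5 tested, none was called by limma between labelled Dnmt3b-/- and Dnmt3b+/+, where 4.45% of all genes were, and 2 were at an unadjusted p under 0.05, where 40.0% of all genes were. Mb, myoglobin of heart and skeletal muscle, was called lower against Dnmt3bCI/CI, where 4.32% of all genes were (-1.48 ± 0.47, limma adjusted p = 0.0482) and was 0.32 to 0.68 FPKM in labelled Dnmt3b-/-, 0.81 to 2.26 FPKM in Dnmt3bCI/CI. This call was lost with 1 FPKM added, without a filter, with median-of-ratios or quantile scaling, and when some single embryos were left out.

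The genes whose levels over the 9 embryos were most like the globins were sought among 12789 genes with a mean of at least 1 FPKM. Nearest to the log2 summed adult globins were Smim1 (Pearson r = 0.979), the small membrane protein of the Vel blood group, Lyl1 (0.967), a haematopoietic transcription factor, Apela (0.960), Fam46c (0.960) and Zc3hav1 (0.954). Nearest to the summed embryonic globins were Ldhb (0.966), Gars (0.966), Bzw2 (0.964), Proser1 (0.963) and Gm26787 (0.957). Nearest to the beta cluster ratio were Bcat1 (0.975), Gpr19 (0.948), Tsg101 (0.942), Npepps (0.942) and Hdac2 (0.942). The correlations describe 9 embryos that share genotype and, for Dnmt3b+/+ replicate 2, the low liver and red cell genes.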

How the data were processed

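RNA from 9 whole E11.5 embryos was sequenced as paired ends. The authors trimmed the reads, aligned them with STAR to mm10 and kept a minimum mapping quality of 50 before quantification in SeqMonk. They deposited FPKM values per gene on a linear scale, 1 column per embryo. The annotation release and strandedness were not given in the sources used here. FVB reads were placed on the C57BL/6 genome, and reads shared by near-identical globin genes could be lost. Genes without reads hold a floor worth 0.9 reads. With exon lengths of GENCODE M21 the values gave back reads, whole within 0.01 for about 90% of low values.

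One row without a gene was dropped, leaving 34244 genes, and 19397 with at least 0.1 FPKM in at least 3 embryos were tested. limma 3.58.1 in R 4.3.3 was fitted with a variance trend to log2(FPKM + 0.1) over all 9 embryos and 3 genotypes. The added 0.1 understates changes of low genes. A call needed p under 0.05 after Benjamini-Hochberg adjustment, with a fold of 2 or more. Ratios used FPKM with no pseudocount, with the SE from the SDs of log2 ratios. The members and lists were chosen with earlier results of these data known. Genes were named by rule: all members, called list genes (up to 6 per list and comparison), 18 preset genes (1 of them not reported here), and 5 per likeness. The fit was tested on simulated data. Embryos are the replicates. Pseudocounts, filters, scalings, gene choices, a replicate block and leaving out each embryo were tried. The methylation and lymphoma samples were not used here.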

Additional observations from a re-analysis of the deposited data

How the results depend on the processing

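With 3 embryos per genotype the limits are the spread between embryos and, for comparisons with Dnmt3b+/+, replicate 2 of that genotype. Counts are of genes called, and the cause of a change was not tested. Apart from leaving out embryos, 197 values under other settings stayed within the spread between embryos (counts within 1.5 times), 29 moved beyond it and 5 changed sign from a reported difference larger than that spread.

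For labelled Dnmt3b-/- minus Dnmt3b+/+ (A) and minus Dnmt3bCI/CI (B), members called were 1 in A and 4 in B with only the compared genotypes fitted, against 2 and 2, which also gave 12 hepatocyte markers and 1 other blood marker in B, where 724 (A) and 1122 (B) of all genes were called, against 863 and 1051. All genes called were 193 (A) and 242 (B) with 1 FPKM added, 484 and 597 with a filter of 1 FPKM, and 5001 and 5407 without a fold threshold. With 0.01 FPKM added, other globins were 1 in A and 2 in B, and with 1 FPKM added 0 in B, with regulators 2 in A and 1 in B. Without a filter, or with median-of-ratios or quantile scaling, other globins in B were 0, and without a filter hepatocyte markers in B were 0. Without a fold threshold A held 2 red cell genes, 17 regulators, 1 other globin and 5 other blood markers, and B held 1, 20, 2 and 10.

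In A and B the differences in cluster ratios and in Hbb-y to Hbb-bh1 kept their sign under all settings tried, leaving out embryos included. In B the alpha cluster difference was 2.55 with mean log2 in place of sums and 2.34 with Hba-a2 as the adult gene, and the beta cluster difference 3.84 with mean log2. With Hbb-bh1 as the embryonic gene the beta difference was 4.06 in A and 5.10 in B. The alpha to beta difference, -0.30 in A and -0.47 in B, reversed to 0.59 (adult genes) and 0.91 (embryonic genes) in A, and to 0.13 (mean log2), 1.05 (adult) and 1.00 (embryonic) in B. For Dnmt3bCI/CI minus Dnmt3b+/+, where the reported 0.17 was within the spread, it also changed sign, to -0.30 (mean log2), -0.46 (adult) and -0.094 (embryonic).

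Leaving out 1 embryo moved members called from 1 to 4 in A and from 2 to 4 in B. In A the count was 1 without Dnmt3b+/+ replicate 3 or labelled Dnmt3b-/- replicate 3, 3 without labelled Dnmt3b-/- replicate 1 and 4 without Dnmt3b+/+ replicate 2. In B it was 4 without Dnmt3b+/+ replicate 1 or 2. Regulators ranged from 2 to 4 and from 1 to 3, other globins from 0 to 1 and from 0 to 2, hepatocyte markers from 1 to 9 and from 0 to 13, and other blood markers from 0 to 1 in both.

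Same-numbered embryos of A, of Dnmt3bCI/CI against Dnmt3b+/+ and of B had mean correlations of deviations of -0.21, 0.05 and -0.10. For embryos with different numbers the means were 0.11, -0.02 and 0.05. With deviations taken from the mean of only 3 embryos per genotype, these values cannot decide whether the numbers pair embryos. With a replicate block, members called were 2 in A and 2 in B, and no other count changed by over 1.5 times.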
